A study of Mus musculus with 10 samples.

Results

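The transcripts described here come from 45 imprinted mouse genes other than Cdkn1c, out of 53379 genes counted in each library. They were chosen by gene symbol, as genes for which parent-of-origin expression is established in the mouse, and each symbol was matched to its Ensembl identifier. By background knowledge, 26 of them are expressed from the paternal allele, 13 from the maternal allele, and 6 in a way that depends on the transcript isoform or the tissue (Grb10, Herc3, Blcap, Gnas, Inpp5f and H13). The read counts do not separate the alleles, so the expressed allele is a label on each gene and not a measurement.

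The libraries were made from E16 neocortex to profile expression after Cdkn1c deletion. Cells of the Emx1-Cre lineage that carried a MADM label (GFP, tdTomato or both, sorted together) were isolated by FACS, with 400 cells and a single embryo per library. The 3 cKO libraries (cKO-Cdkn1c-MADM-7) carried a Cdkn1c-flox allele on both copies of chromosome 7, and the 7 control libraries (MADM-7) carried none. Both groups had the GT and TG MADM cassettes on chromosome 7, 1 Emx1-Cre allele and a mixed C57BL/6J, CD1 background. MADM (Mosaic Analysis with Double Markers) recombines the chromosome 7 homologues in Cre-expressing cells, and the labelled cells therefore include cells with both copies of chromosome 7 from 1 parent; in the sorted pool of either group the members on chromosome 7 come from such cells and from cells with both parental copies. Emx1-Cre is active in the dorsal telencephalic lineage, mainly in radial glial progenitors and the projection neurons they give rise to.

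Imprinted genes are transcribed mostly or only from 1 parental allele, and the silent allele is usually set by a germline DNA methylation mark at an imprinting control region. The zinc finger protein ZFP57 binds the methylated hexamer TGCCGC in such regions and recruits TRIM28 to keep the mark after fertilisation. Many imprinted genes act on growth, such as Igf2, Igf2r, Grb10 and Plagl1, and several are known for strong expression in the developing brain, such as Ndn and Nnat.

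Of the 45 genes, 34 had a mean of at least 10 reads per library and were tested (19 paternally, 9 maternally and 6 isoform- or tissue-dependently expressed). Values are CPM, the read counts scaled to each library's reads on the 11551 tested genes with TMM factors, and the difference between groups is edgeR's log2 fold change of cKO against control. Its standard error (SE) was derived as the size of the log2 fold change over the square root of the quasi-likelihood F statistic. In the Benjamini-Hochberg adjusted quasi-likelihood test over all 11551 genes tested, Magel2, Meg3, Ndn, Nnat, Grb10 and Zdbf2 were higher in cKO with an adjusted p below 0.05, and 0 members were lower, with 2 lower at an unadjusted p under 0.05. The 6 genes are 17.6% of the members tested, and 2.27% of all genes tested were called higher and 0.883% lower. The members were chosen with earlier results of these data known. Magel2 and Mirg passed the filter on low counts only through the cKO libraries, with control means under 10 reads; of the other 32 members 5 (15.6%) were called higher, against 1.71% of all genes with a control mean of at least 10 reads. In bulk libraries such as these, a change in the share of a cell type and a change in RNA per cell cannot be told apart. Depth was 1738220 to 3362487 reads on genes per library. The targeted gene followed its label, with 95.9 ± 20.1 CPM of Cdkn1c (SD) in the 7 controls and 7.46 ± 3.43 (SD) in the 3 cKO libraries.

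**Figure D1:**
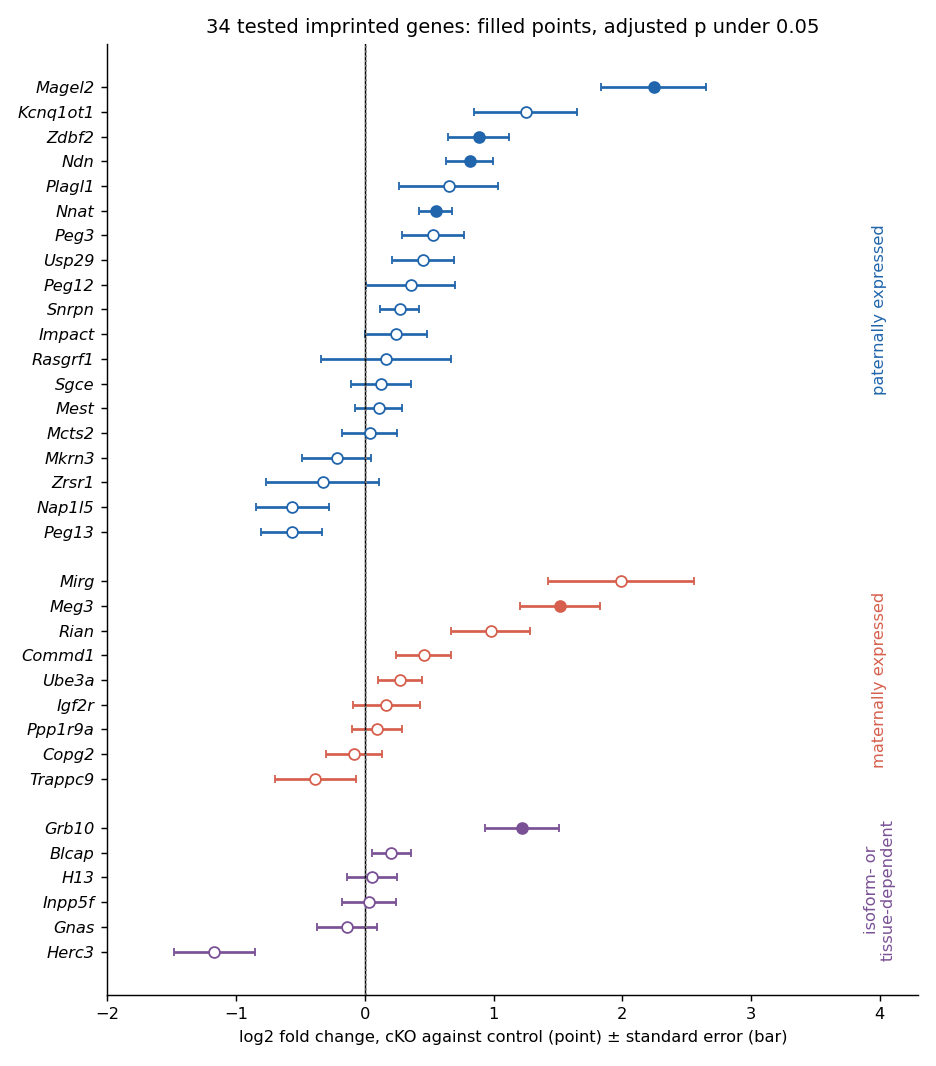
Log2 fold change of cKO against control (points) with its standard error (bars) for the 34 tested imprinted genes, grouped by the allele they are expressed from. Filled points mark the 6 genes called at the 0.05 threshold of the adjusted p, all to the right of 0; the dotted line is the median of all genes tested, at 0.01.

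The promoters of the 6 called genes are shown because transcription of these genes starts there and the ZFP57 hexamer can be looked for in them. Each is 300 bases from RefSeq (GRCm38.p6), from 250 bases before to 50 bases after an annotated transcript start, written 5′ to 3′ on the strand of the gene. Capitals mark TGCCGC or its reverse complement GCGGCA.
Nnat, chr2:157559828-157560127, plus strand: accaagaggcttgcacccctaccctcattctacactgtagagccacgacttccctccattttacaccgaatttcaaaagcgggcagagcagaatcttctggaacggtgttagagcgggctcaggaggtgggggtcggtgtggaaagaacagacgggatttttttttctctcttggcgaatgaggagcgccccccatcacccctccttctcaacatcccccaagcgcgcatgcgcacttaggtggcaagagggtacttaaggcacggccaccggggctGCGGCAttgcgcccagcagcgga
Ndn, chr7:62348027-62348326, plus strand: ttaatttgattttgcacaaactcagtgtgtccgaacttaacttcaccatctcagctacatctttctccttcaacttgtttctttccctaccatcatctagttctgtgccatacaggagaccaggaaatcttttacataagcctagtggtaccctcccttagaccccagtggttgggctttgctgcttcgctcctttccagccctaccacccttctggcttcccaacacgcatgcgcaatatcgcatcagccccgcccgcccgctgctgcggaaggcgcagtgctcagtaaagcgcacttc
Magel2, chr7:62376729-62377028, plus strand: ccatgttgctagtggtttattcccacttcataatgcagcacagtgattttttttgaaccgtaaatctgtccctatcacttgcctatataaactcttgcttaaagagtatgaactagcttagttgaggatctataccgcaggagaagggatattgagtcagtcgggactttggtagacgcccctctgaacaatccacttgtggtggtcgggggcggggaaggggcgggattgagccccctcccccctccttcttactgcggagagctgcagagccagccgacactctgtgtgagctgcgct
Zdbf2, chr1:63200108-63200407, plus strand: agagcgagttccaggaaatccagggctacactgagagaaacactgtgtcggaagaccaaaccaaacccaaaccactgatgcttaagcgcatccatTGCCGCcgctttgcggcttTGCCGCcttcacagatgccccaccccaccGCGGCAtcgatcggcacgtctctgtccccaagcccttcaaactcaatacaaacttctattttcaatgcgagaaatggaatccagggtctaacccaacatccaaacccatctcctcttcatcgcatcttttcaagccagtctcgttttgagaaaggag
Meg3, chr12:109540746-109541045, plus strand: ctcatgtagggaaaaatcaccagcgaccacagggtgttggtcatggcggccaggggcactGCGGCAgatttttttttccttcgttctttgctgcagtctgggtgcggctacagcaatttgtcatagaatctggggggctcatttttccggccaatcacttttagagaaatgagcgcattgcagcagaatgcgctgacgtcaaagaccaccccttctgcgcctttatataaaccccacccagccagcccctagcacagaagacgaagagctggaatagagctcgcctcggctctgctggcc
Grb10, chr11:12037371-12037670, minus strand: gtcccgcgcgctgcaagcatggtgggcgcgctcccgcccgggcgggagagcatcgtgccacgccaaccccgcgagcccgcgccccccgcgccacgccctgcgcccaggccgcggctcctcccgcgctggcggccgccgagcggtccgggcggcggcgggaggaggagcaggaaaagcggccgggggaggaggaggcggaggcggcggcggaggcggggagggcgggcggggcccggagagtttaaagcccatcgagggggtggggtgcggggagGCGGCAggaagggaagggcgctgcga
The window of Zdbf2 shown, at the start of its long upstream transcript, held 3 matches, and its window at the start of the shorter transcript held 0. Nnat, Meg3 and Grb10 had 1 match each, while Ndn and Magel2 had 0. The second windows of Meg3 and Grb10 held 0.

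In all, 37 of the 45 members had at least 1 promoter in the RefSeq table. The hexamer was present on either strand in 14 of these 37 genes (37.8%), against 13.1% of all 27025 genes in the table. Counted over windows, it was present in 15 of 54 (27.8%) of the members and in 11.6% of all 32851. Mest and Nap1l5 held 2 matches in a window, and Mcts2, Copg2, Zim1, Snrpn, Snurf, Igf2, Plagl1 and Commd1 held 1; Snrpn and Snurf share theirs. The members' windows were also richer in CG dinucleotides, with a median of 15 per window against 7 in all windows, and the hexamer contains a CG. A match describes these letters in this window and says nothing about methylation or binding.

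In the count column used, Nnat, Ndn and Snrpn were the most abundant members for their length. That column leaves out reads on exons of more than 1 gene, which lowers some members, such as Gnas (1597 reads against 31007 over the strand-specific columns). The order and shares given here are those of that column. In control, Nnat had 1875 ± 173 CPM per kilobase of exon (SD, n = 7), Ndn 166 ± 28.7, Snrpn 125 ± 12.3, Blcap 52.1 ± 5.26 and Mcts2 36.8 ± 3.84. Each of the gaps from Nnat to Ndn to Snrpn to Blcap to Mcts2 was larger than the SD of either gene. Together the members took 0.569 to 0.661% of the reads on genes in control and 0.735 to 0.974% in cKO, and Nnat held more of these reads than any other member in each of the 10 libraries.

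Nnat (ENSMUSG00000067786.16, chr2:157560078-157562522), which encodes the small membrane protein neuronatin, lies within an intron of Blcap and is expressed from the paternal allele. Its level was 5531, 3848 and 5703 CPM in cKO replicates 1, 2 and 3. In control the lowest library had 2875, the median 3446 and the highest 3860 CPM. Replicates 1 and 3 of cKO were thus above all controls, and replicate 2 was just under the highest control. The log2 fold change was 0.55 (SE 0.13, adjusted p = 0.0215 from edgeR). Without cKO replicate 1 or cKO replicate 3 the call was lost (0.48 with adjusted p = 0.0871 and 0.45 with adjusted p = 0.11), as it was with the replicate number as a block (adjusted p = 0.288).

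Ndn and Magel2 are neighbouring single-exon genes of the Prader-Willi region on chromosome 7, and both encode MAGE family proteins. Ndn (ENSMUSG00000033585.5, chr7:62346569-62350262) encodes necdin, a suppressor of proliferation that is abundant in post-mitotic neurons. Ndn had 1412, 699 and 1129 CPM in cKO replicates 1 to 3. The controls ran from 490 to 784 CPM with a median of 574, so replicates 1 and 3 of cKO were above every control and replicate 2 was within their range. The log2 fold change of Ndn was 0.81 (SE 0.18, adjusted p = 0.0175 from edgeR), and the call was lost without cKO replicate 1 (0.57, adjusted p = 0.114) and without cKO replicate 3 (0.78, adjusted p = 0.0699). With the replicate number as a block it was lost as well (adjusted p = 0.0931).

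Magel2 (ENSMUSG00000056972.6, chr7:62377010-62381640), which acts in endosomal protein recycling, was a low transcript in control. It had 16.5, 12.2 and 7.64 CPM in the cKO libraries, and 0.648 to 4.12 CPM with a median of 2.85 in control. The groups did not overlap. Its log2 fold change was 2.24 (SE 0.41, adjusted p = 0.00362 from edgeR), and its adjusted p stayed under the threshold when any of the 10 libraries was left out. With the replicate number as a block the call was lost (1.98, adjusted p = 0.0825). The control mean was 7.14 reads per library, so Magel2 passed the filter on low counts only through the cKO libraries, as did Mirg.

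The other members of this region that could be tested did not pass the test. Snrpn, which encodes a spliceosomal SmN protein, had 347, 236 and 395 CPM in cKO, and 240 to 317 CPM with a median of 272 in control. Its log2 fold change was 0.27 (SE 0.15, adjusted p = 0.407). Ube3a, the maternally expressed ubiquitin ligase gene of the region, had 175, 149 and 134 CPM in cKO and 95.3 to 155 CPM, with a median of 138, in control (log2 fold change 0.28, SE 0.17, adjusted p = 0.461). Both genes overlapped between the groups. The log2 fold changes of Peg12 and Mkrn3 were 0.36 (SE 0.34) and -0.22 (SE 0.27), with adjusted p of 0.68 and 0.756 from edgeR. Snurf had 0 reads, and all of its exonic bases are shared with Snrpn, so that reads over it could be assigned to neither by the counting used.

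Zdbf2 (ENSMUSG00000027520.15, chr1:63273265-63314576) is a paternally expressed zinc finger gene known for its effect on postnatal feeding and growth. It had 72.5, 54.4 and 38.2 CPM in the cKO libraries and 17.8 to 37.1 CPM, with a median of 30.8, in control, so that the lowest cKO library lay just above the highest control. Its log2 fold change was 0.88 (SE 0.23, adjusted p = 0.0496 from edgeR). This call rests on the threshold: it was kept in 1 of the 10 fits with a library left out, that without cKO replicate 3, and was lost in the other 9, with adjusted p up to 0.229 without cKO replicate 1. With the replicate number as a block the adjusted p was 0.294.

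The maternally expressed non-coding RNAs of the Dlk1-Meg3 locus on chromosome 12, Meg3, Rian and Mirg, were all higher on average in cKO, but only Meg3 passed the test. Meg3 (ENSMUSG00000021268.17, chr12:109541001-109571726) had 582, 229 and 237 CPM in cKO, and 67.5 to 219 CPM with a median of 109 in control. The groups did not overlap, and replicate 1 had over double the level of the other cKO libraries. Its log2 fold change was 1.52 (SE 0.31, adjusted p = 0.0106 from edgeR), and 0.92 (adjusted p = 0.117) without cKO replicate 1.

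Rian, which lies downstream on the same strand and contains clusters of small nucleolar RNAs, had 35.4, 17.3 and 14.8 CPM in cKO. Control ran from 8.54 to 14.7 CPM with a median of 11.7, and the groups were separated by less than 1 CPM. For Rian this gave a log2 fold change of 0.98 (SE 0.31) and an adjusted p of 0.0984. Mirg, the host of a microRNA cluster at the distal end of the locus, had 17.2, 3.55 and 5.52 CPM in cKO and 0.356 to 5.04 CPM, with a median of 2.35, in control. Only cKO replicates 1 and 3 were above all controls, and the log2 fold change was 1.99 (SE 0.57, adjusted p = 0.0644). Without cKO replicate 1, the log2 fold change fell to 0.46 for Rian (adjusted p = 0.508) and to 0.97 for Mirg (adjusted p = 0.505). The paternally expressed partners at this locus, Dlk1 and Rtl1, had 3 and 68 reads over the 10 libraries and could not be tested.

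The microRNAs that Mirg hosts were not measured, since the libraries were made from polyadenylated RNA and counted on genes. The RefSeq table used here (GRCm38.p6) lists 14 hairpins with 26 mature microRNAs within Mirg, 3 hairpins within Rian and 2 within Meg3, and need not hold every mature arm of a hairpin. The sequences of a few that lie within Mirg are given because they are the functional products of this RNA, with the seed (bases 2 to 8) in capitals.
miR-134-5p: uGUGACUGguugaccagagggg
miR-485-3p: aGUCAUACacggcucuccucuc
miR-410-3p: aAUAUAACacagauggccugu
miR-453: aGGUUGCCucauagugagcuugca
miR-496a-5p: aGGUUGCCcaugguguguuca
miR-134-5p is known for its role in neuronal dendrites. miR-453 and miR-496a-5p share the seed GGUUGCC, which was the only seed found more than once among the microRNA sequences that this table lists within Meg3, Rian and Mirg.

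Grb10 (ENSMUSG00000020176.17, chr11:11930508-12038683) encodes an adaptor that restrains insulin and insulin-like growth factor signalling, and is expressed from the maternal allele in most tissues and from the paternal allele in neurons. It had 49.9, 138 and 54.7 CPM in cKO and 25.6 to 48.2 CPM, with a median of 31.8, in control. All cKO libraries were above the controls, replicates 1 and 3 by a small margin and replicate 2 by far. Its log2 fold change was 1.22 (SE 0.29, adjusted p = 0.0248 from edgeR). It was 0.60 (adjusted p = 0.208) without cKO replicate 2, and the adjusted p was 0.0521 without control replicate 1, 0.0512 without control replicate 3 and 0.0551 with limma-voom. With the replicate number as a block the adjusted p was 0.0742.

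Herc3 (ENSMUSG00000029804.16, chr6:58831465-58920398), a ubiquitin ligase gene in whose intron Nap1l5 lies, was the only member with every cKO library below every control. Its level was 10.8, 15.4 and 10.6 CPM in cKO and 18.5 to 41.5 CPM, with a median of 25.6, in control. The log2 fold change was -1.17 (SE 0.31) and the adjusted p 0.0512, just outside the threshold that Zdbf2 was just inside. With DESeq2's Wald test, without the filter on low counts and with a covariate for the reads outside annotated genes, the adjusted p of Herc3 was 0.00819, 0.0171 and 0.0311. The other 6 settings did not call it, with adjusted p of 0.0524 to 0.0791 in 5 of them and 0.189 with the replicate number as a block. When a library was left out, Herc3 was called in 2 of 10 fits, with adjusted p up to 0.139 without cKO replicate 3.

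**Figure D2:**
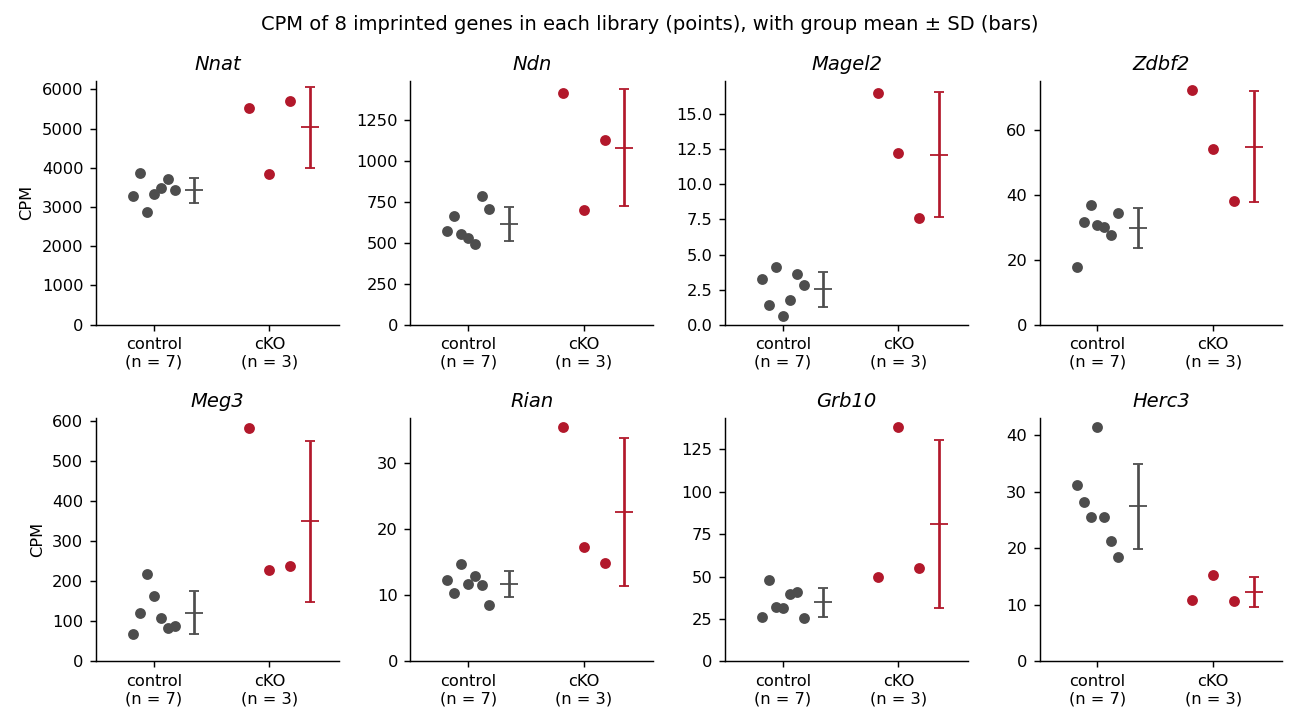
CPM of the 6 called genes and of Rian and Herc3 in each of the 7 control (grey) and 3 cKO (red) libraries, with the group mean ± SD beside the points. Nnat and Ndn overlap between the groups through cKO replicate 2, Meg3 and Rian have 1 cKO library far above the others, and Herc3 lies lower in all cKO libraries.

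A further group of members had an unadjusted p under 0.05 that did not pass the adjustment. Counting all 13 members with an unadjusted p under 0.05, these are 38.2% of the members tested, against 16.4% of all genes tested. With at least 10 reads in the control mean as well, which leaves out Magel2 and Mirg, they are 11 of 32 (34.4%), against 15.3% of all such genes. Kcnq1ot1, the paternally expressed antisense RNA of the imprinted domain that holds Cdkn1c, had 159, 83.9 and 59.4 CPM in cKO and 15.6 to 77.8 CPM, with a median of 30.7, in control (log2 fold change 1.25, SE 0.40, adjusted p = 0.107). The groups overlapped, and the log2 fold change of Kcnq1ot1 was 0.75 (adjusted p = 0.434) without cKO replicate 1. Peg3, which encodes a zinc finger protein of growth and maternal behaviour, had 44.5, 77.2 and 43.3 CPM in cKO and 28.8 to 55.0 CPM, with a median of 36.0, in control (log2 fold change 0.53, SE 0.24, adjusted p = 0.284). Without cKO replicate 2 the value for Peg3 was 0.21 (adjusted p = 0.724).

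Commd1, a gene of copper and NF-kappaB regulation in whose intron Zrsr1 lies, had 55.7, 48.1 and 58.6 CPM in cKO. Its controls ran from 29.7 to 54.1 CPM with a median of 36.7, and the log2 fold change was 0.46 (SE 0.21, adjusted p = 0.297). Peg13, a non-coding RNA within an intron of Trappc9, went the other way, with 57.0, 151 and 87.8 CPM in cKO and 107 to 187 CPM, with a median of 144, in control. Its log2 fold change was -0.57 (SE 0.24, adjusted p = 0.237); cKO replicates 1 and 3 were below every control, and replicate 2 was above the control median. The log2 fold change of Peg13 was -1.02 (adjusted p = 0.0177) without cKO replicate 2 and -0.28 (adjusted p = 0.576) without cKO replicate 1.

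For 21 tested members the unadjusted p was 0.05 or more and the groups overlapped. Their log2 fold changes ran from -0.56 to 0.65 with SE of 0.15 to 0.50. The largest SE was that of Rasgrf1, which had 1.45 to 19.8 CPM in control. Plagl1, a zinc finger transcription factor of embryonic growth, had the highest of these values, 0.65 (SE 0.39), and was singled out after its values were seen. Its level was 82.7 CPM in cKO replicate 2, above the highest control at 33.7, and 13.5 and 25.9 CPM in cKO replicates 1 and 3.

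The members were also grouped by the allele that each is known to use. Among the paternally expressed members, 4 of 19 tested were called higher and 15 of 19 had a log2 fold change above 0, with a median of 0.27. Among the maternally expressed, 1 of 9 was called higher and 7 of 9 were above 0, with a median of 0.28. The 6 isoform- or tissue-dependent members had a median of 0.04, with Grb10 at the upper end and Herc3 at the lower. Over all genes tested, 2.27% were called higher, 51.3% were above 0 and the median was 0.01. The paternal counts include Magel2 and the maternal ones Mirg. Without them, 3 of 18 paternally expressed members were called higher with a median of 0.26, and 1 of 8 maternally expressed with a median of 0.22, so that the order of the medians turned. Of all genes with a control mean of at least 10 reads, 1.71% were called higher. With all libraries, the paternal and maternal medians differed by less than their spread between control libraries (SD of 0.14 and 0.19 on the log2 scale). The order of the medians also depended on which cKO library was left out. They were 0.31 (paternal) and 0.17 (maternal) without cKO replicate 1, 0.12 and 0.29 without cKO replicate 2, and 0.12 and 0.38 without cKO replicate 3, where the gap was larger than both SDs.

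Summed over the 26 paternally expressed members, the level was 8021, 5654 and 7967 CPM in cKO and 4472 to 5443 CPM in control. Without Nnat the sums were 2490, 1806 and 2264 CPM in cKO and 1410 to 1715 CPM in control. The 13 maternally expressed members summed to 1091, 693 and 642 CPM in cKO and 434 to 674 CPM in control. Both paternal sums lay above all controls in every cKO library, whereas the maternal sum of cKO replicate 3 lay within the control range. Each sum is weighted by its abundant members, Nnat and Ndn for the paternal and Meg3, Ube3a and Ppp1r9a for the maternal.

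By position, 2 of the 10 tested members on chromosome 7, which carries the MADM cassettes and Cdkn1c, were called higher, and 4 of the 24 on other chromosomes. Of all genes tested, 2.27% were called higher. The median log2 fold change was 0.40 on chromosome 7 and 0.14 elsewhere. Without Magel2 and Mirg, these were 1 of 9 called with a median of 0.36 and 4 of 23 with a median of 0.12, against 1.71% called higher of all genes with a control mean of at least 10 reads. Groups of cKO libraries that lay entirely above the controls were found for 5 of 34 members (14.7%) and entirely below for 1 of 34 (2.94%), against 3.32% and 2.68% of all genes tested. Among the 32 members with a control mean of at least 10 reads as well, 4 (12.5%) lay entirely above and 1 entirely below, against 2.76% and 2.73% of all such genes.

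Neighbouring genes of opposite or related imprinting were set against each other within each library, as the log2 ratio of their CPM. Both genes of a pair share the pool of cells and the read depth, but need not be expressed in the same cells of the pool. The ratio of Nnat to Blcap was 4.83, 4.77 and 4.73 in the cKO libraries and 4.20 to 4.61 in control, so the groups did not overlap and the mean was 0.34 higher in cKO. This ratio uses the values from which Nnat was called higher and is not separate support for that call. Blcap itself, which encodes an apoptosis-related membrane protein, had 194, 141 and 215 CPM in cKO and 137 to 185 CPM, with a median of 161, in control (log2 fold change 0.21, SE 0.15, adjusted p = 0.564). Both Nnat and Blcap were lowest among the cKO libraries in replicate 2, and their ratio there was still above every control.

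In the 7 other pairs the groups overlapped. The mean ratio differed by -0.04 for Snrpn to Ube3a, 0.05 for Sgce to Ppp1r9a, 0.20 for Mest to Copg2, 0.49 for Nap1l5 to Herc3, -0.35 for Peg13 to Trappc9, 0.01 for Mcts2 to H13 and -0.68 for Zrsr1 to Commd1. For Zrsr1 to Commd1 the cKO libraries lay close together, at -2.57 to -2.39, within a control range of -2.99 to -0.60. These are descriptions without a test.

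Of the genes in these pairs, Sgce, a dystrophin-associated sarcoglycan, had 31.4, 36.6 and 42.9 CPM in cKO and 24.6 to 43.6 CPM with a median of 32.0 in control. Ppp1r9a, which encodes the actin-binding protein neurabin, had 136, 119 and 84.9 CPM in cKO and 75.8 to 144 CPM with a median of 108 in control. Neither gene separated the groups (adjusted p = 0.855 and 0.87 from edgeR). Mest, which encodes a hydrolase-like membrane protein of mesoderm and brain, had 91.7, 134 and 165 CPM in cKO and 106 to 153 CPM with a median of 110 in control. Its antisense neighbour Copg2, a coatomer subunit gene, had 29.7, 50.8 and 36.5 CPM in cKO and 32.1 to 47.7 CPM with a median of 42.8 in control. Both had the lowest cKO value below the controls and the highest above them (adjusted p = 0.836 and 0.893).

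Nap1l5, a nucleosome assembly protein family gene, had 49.9, 20.9 and 33.1 CPM in cKO and 28.7 to 74.5 CPM with a median of 50.7 in control (adjusted p = 0.336). Trappc9, a vesicle-tethering complex gene, had 20.6, 31.5 and 44.5 CPM in cKO and 19.2 to 62.2 CPM with a median of 36.3 in control. In cKO, both Nap1l5 and Trappc9 were at or below the control median in 2 or more of the 3 libraries, with overlap between the groups. Mcts2, a retrogene within an intron of H13, had 27.7, 33.1 and 43.3 CPM in cKO and 27.6 to 37.7 CPM with a median of 35.3 in control. H13, which encodes a signal peptide peptidase, had 239, 128 and 186 CPM in cKO and 141 to 230 CPM with a median of 174 in control, and Zrsr1, a splicing factor retrogene, had 8.77, 7.88 and 10.6 CPM in cKO and 5.89 to 22.0 CPM with a median of 10.1 in control. For Mcts2, H13 and Zrsr1 the cKO values fell on both sides of the control median, with adjusted p of 0.954, 0.924 and 0.781 from edgeR.

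**Figure D3:**
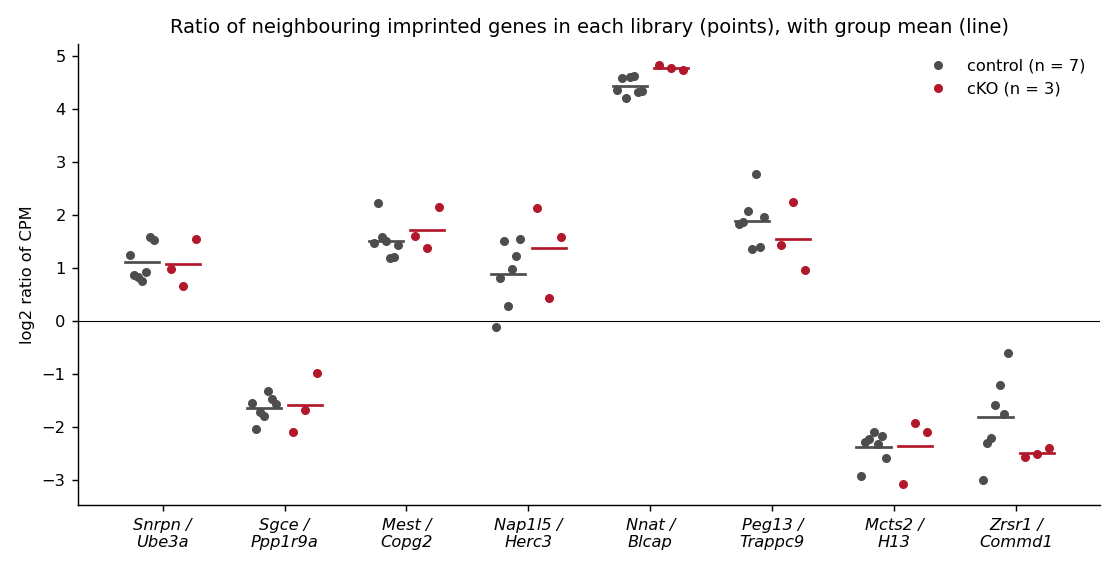
Log2 ratio of CPM within each library for 8 pairs of neighbouring imprinted genes, with controls (n = 7) in grey, cKO (n = 3) in red and the group mean as a line. Only the ratio of Nnat to Blcap separates the groups, at 4.73 to 4.83 in cKO and 4.20 to 4.61 in control. It uses the values from which Nnat was called higher.

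The count column used leaves out reads that fall on exons of more than 1 gene, and this affects several pairs. Summed over the strand-specific columns, Gnas had 31007 reads against 1597 in the column used, Ube3a 6405 against 3669, Mest 4707 against 3329 and Copg2 2472 against 1096. The log2 fold change of Gnas was -0.14 in the column used and 0.17 in the summed columns, with adjusted p of 0.835 and 0.536 from edgeR, so no direction is given for it. The 6 called members were called in the summed columns too.

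The 11 members below the filter were H19, Igf2, Airn, Zim1, Snurf, Dlk1, Rtl1, Peg10, Asb4, Nespas and Phlda2. Peg10 came closest, with 53 reads in the 3 cKO libraries and 42 in the 7 controls, which is 6.49 ± 3.20 CPM against 2.20 ± 1.09 (SD). H19 had 43 and 35 reads, Rtl1 34 and 34, Zim1 24 and 34 and Asb4 18 and 14 in cKO and control. Igf2 and Phlda2, which with H19 are highly expressed in mesodermal and extraembryonic tissues, had 15 and 3 reads in all. With so few reads a difference in Igf2, Dlk1 or Phlda2 could not have been seen. Low expression is not the only way to a low count here, since reads over exons shared by several genes could be assigned to none. Much of the exonic length of Igf2 is shared with the readthrough gene Gm49394 on the same strand, and Nespas, which overlaps Gnas on the other strand, had 43 reads in the unstranded counts used but 234 when both strand-specific columns were added up.

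The libraries fell into separate sets by the share of their reads outside annotated genes, which the labels do not explain. It was 5.47 to 8.64% in a set of 5 libraries (cKO replicate 3 and 4 controls) and 12.8 to 16.7% in the other 5 (cKO replicates 1 and 2 and 3 controls). Kcnq1ot1 moved with this share: in control its level was 15.6 to 30.7 CPM in the first set and 59.2 to 77.8 CPM in the second. The difference of mean log2 CPM between cKO and control was 1.42 within the first set and 0.70 within the second. With the share as a covariate its log2 fold change was 0.94 (adjusted p = 0.0202 from edgeR), where it was 1.25 with an adjusted p of 0.107 without it.

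Among the controls, Meg3 was at 67.5 to 121 CPM in the first set and at 109 to 219 CPM in the second, so that the sets overlapped. Within the sets it was higher in cKO by 1.43 and 1.21 on the log2 scale, and with the covariate its log2 fold change was 1.25 (adjusted p = 0.00309). The 6 called members were higher in cKO within both sets. Their within-set differences for the first and second set were 0.68 and 0.52 for Nnat, 0.74 and 0.92 for Ndn, 1.30 and 2.55 for Magel2, 0.48 and 0.93 for Zdbf2, and 0.68 and 1.27 for Grb10. The first set has a single cKO library, so these values carry no test. With the covariate, Zdbf2 was no longer called (0.77, adjusted p = 0.0823) and the other 5 were.

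**Figure D4:**
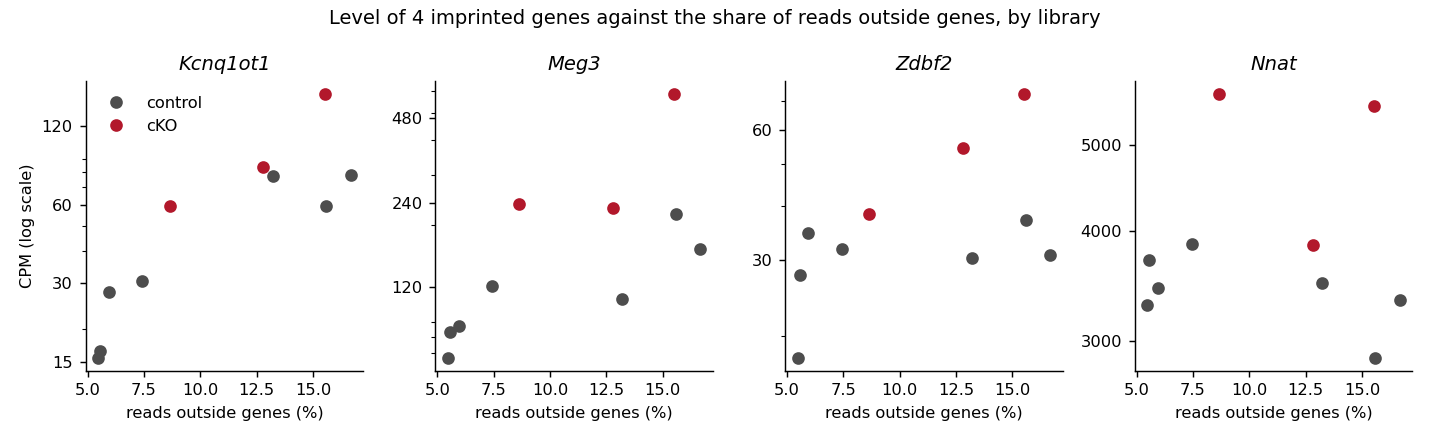
CPM on a log scale of Kcnq1ot1, Meg3, Zdbf2 and Nnat against the percentage of each library's reads outside annotated genes, with 7 controls in grey and 3 cKO libraries in red. Kcnq1ot1 is at 15.6 to 30.7 CPM in the controls with the smaller percentage and at 59.2 to 77.8 CPM in those with the larger, while the highest control of Nnat, at 3860 CPM, is in the set with the smaller share.

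Markers of Cajal-Retzius cells, early-born Reln-expressing neurons of the marginal zone, differed with the genotype, as did the 6 called members above. All 8 markers that could be tested, of 10, were called higher in cKO, against 2.27% of all genes tested. The list was chosen with earlier results of these data known, so the count is no independent support. Lhx1 and Cacna2d2, with control means of 3.29 and 6.14 reads per library, passed the filter on low counts only through the cKO libraries. Without them, 6 of 6 markers were called higher, with a median log2 fold change of 2.70. Reln itself was at 297 ± 60.9 CPM (SD) over the 3 cKO libraries and 44.0 ± 30.8 (SD) over the 7 controls. The summed level of the 10 markers was 757, 663 and 912 CPM in cKO and 26.5 to 237 CPM in control, and 0 of the 10 were without reads. Whether these cells or their RNA contribute to the level of Ndn, Nnat, Meg3 or other members was not tested. Among the controls, this sum differed from 26.5 CPM in replicate 1 to 237 CPM in replicate 2. Ndn was at 574 and 665 CPM in those libraries, Nnat at 3292 and 3860 CPM, and Meg3 at 67.5 and 121 CPM. The control with the lowest sum thus had the lowest Meg3, and the control with the highest sum had the highest Nnat. The highest control value of Ndn, 784 CPM, was in replicate 6 with a sum of 85.6 CPM, and that of Meg3, 219 CPM, in replicate 3 with a sum of 118 CPM.

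Of the projection neuron markers, 6 of 14 were called lower (among them Mpped1, Nrp1 and Neurod6) and 0 higher, with a median log2 fold change of -0.74. Of all genes tested, 0.883% were called lower and 2.27% higher. The other 8 markers did not pass the test. They were Sox5 (-0.80), Mef2c (-0.74), Fezf2 (-0.59), Cux1 (-0.58), Tbr1 (-0.18), Bhlhe22 (-0.15), Bcl11b (0.26) and Neurod1 (0.32). The summed level of the list was 3354 to 3432 CPM in cKO and 5174 to 6539 CPM in control. Of the radial glial progenitor markers 0 of 11 tested were called, and of the intermediate progenitor markers 0 of 7, with sums that overlapped between the groups. For interneuron markers 1 of 7 tested, Dlx2, was called higher (1.63, SE 0.41, adjusted p = 0.0354 from edgeR, called in 3 of 10 fits with a library left out and with adjusted p up to 0.151 without cKO replicate 3), the sum was 46.1 to 157 CPM in cKO and 17.3 to 116 in control, and Nkx2-1 had 0 reads. Gad1 and Lhx6 were tested only through the cKO libraries, and without them the count was 1 of 5. Blood and microglial markers summed to 2314, 37.0 and 53.0 CPM in cKO replicates 1 to 3 and to 3.24 to 1822 CPM in control, mostly haemoglobin RNA, with 0 of 5 tested called. Replicate 1 of cKO, the only cKO library with a high sum, was also the highest cKO library for 7 of the 11 members that were higher at an unadjusted p under 0.05 (Ndn, Magel2, Meg3, Rian, Mirg, Zdbf2 and Kcnq1ot1). Nnat and Commd1 were highest in cKO replicate 3, and Grb10 and Peg3 in cKO replicate 2. These members were picked by p from the same values, and the count was not made over all genes. In control replicates 2 and 5, with sums of 1502 and 1822 CPM, Meg3 was at 121 and 109 CPM and Ndn at 665 and 490 CPM, each within the range of the other controls or, for Ndn in replicate 5, below it. The 14 vascular and meningeal markers, at 9.44 to 36.2 CPM in cKO and 6.49 to 10.3 CPM in control, were all too low to test. Of the 7 choroid plexus markers only Ttr could be tested (2.52, adjusted p = 0.0753), Kl and Kcne2 had 0 reads, and the sum was 7.88 to 59.8 CPM in cKO and 0 to 23.2 CPM in control. The part of these cell types in the members' levels was not tested.

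**Figure D5:**
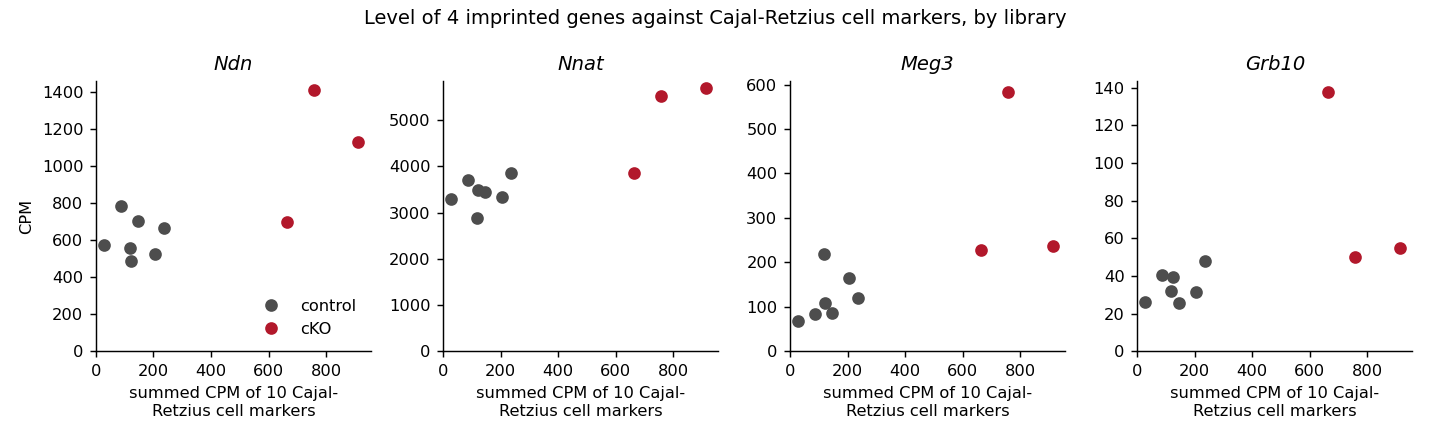
CPM of Ndn, Nnat, Meg3 and Grb10 in each library against the summed CPM of 10 Cajal-Retzius cell markers, with controls in grey and cKO in red. The cKO libraries have marker sums of 663 to 912 CPM and the controls 26.5 to 237 CPM, and among the cKO libraries the one with the lowest sum has the lowest Ndn and Nnat and the highest Grb10.

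Of the factors that set or keep imprints, 19 of 23 could be tested, 2 were called higher and 0 lower, and the median log2 fold change was 0.06. Of all genes tested, 2.27% were called higher and 0.883% lower. Dnmt3a, a de novo DNA methyltransferase, was at 115 ± 52.1 CPM (SD) in cKO and 52.5 ± 16.1 (SD) in control (1.14, SE 0.26, adjusted p = 0.0214 from edgeR), with overlap between the groups. The call of Dnmt3a was kept in 9 of 10 fits with a library left out (adjusted p = 0.184 without cKO replicate 1). Uhrf1, which guides DNMT1 to newly replicated DNA, was at 36.9 ± 10.7 and 18.2 ± 3.41 CPM (0.998, SE 0.24, adjusted p = 0.0307), without overlap. Its call was kept in 4 of those 10 fits, with adjusted p up to 0.141 without cKO replicate 2. Zfp57, whose hexamer is marked above, was at 86.6 CPM in cKO and 124 CPM in control (-0.52, SE 0.20, adjusted p = 0.189), and its partner Trim28 at 334 and 366 CPM (-0.13, SE 0.13, adjusted p = 0.689).

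Grb10, Igf2 and Igf2r belong to the insulin-like growth factor axis, so the other genes of this axis were read beside them. Of 14 listed, 11 could be tested, with a median log2 fold change of -0.06. Igfbp5, a secreted binding protein of these growth factors, was higher in cKO (49.6 ± 25.3 against 13.7 ± 5.73 CPM; 1.84, SE 0.34, adjusted p = 0.00449 from edgeR), and Igfbp3 was lower (12.4 ± 0.949 against 36.3 ± 15.7 CPM; -1.57, SE 0.39, adjusted p = 0.0323). The call of Igfbp5 was kept in 10 of 10 fits with a library left out and that of Igfbp3 in 4 of 10, with adjusted p up to 0.102 without cKO replicate 3. The receptor gene Igf1r was at 96.7 and 106 CPM in cKO and control, and Igf2r, the maternally expressed clearance receptor, at 26.1 ± 8.69 and 23.0 ± 4.65 CPM (0.17, SE 0.26, adjusted p = 0.819). In a list of 45 other genes for which imprinting has been described, which includes Cdkn1c, 21 could be tested. Cobl, an actin nucleator gene next to Grb10 on chromosome 11, was called higher (19.9 ± 5.43 against 2.20 ± 1.78 CPM; 3.20, SE 0.44, adjusted p = 0.000261), as was the GABA receptor subunit gene Gabrg3 (2.23, SE 0.47, adjusted p = 0.0112), and Cdkn1c was called lower. Cobl and Gabrg3 had control means of 5.86 and 5.43 reads per library and passed the filter on low counts only through the cKO libraries. Without them, Cdkn1c was the 1 gene called of 19 tested, and the median log2 fold change over the list was 0.25. Without cKO replicate 1 the adjusted p of Gabrg3 was 0.0775.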

How the data were processed

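RNA-seq was done on 10 libraries of sorted E16 neocortex cells (3 cKO, 7 control, grouped by their labels). The authors merged technical replicates, aligned reads with STAR 2.5.0c to GRCm38 with only single alignments kept, and deposited raw read counts per gene of Gencode M16, without normalization, in an unstranded and in strand-specific columns. The kit did not mark strand, so the unstranded counts were used. The sorted cells were amplified before sequencing and reads are not molecules, so the tests cover the spread between embryos and counting error as read.

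Symbols and positions came from Gencode M21 (GRCm38), in which 50604 of the 53379 identifiers had the same version, 2670 had another version and 105 were absent. The members and lists were chosen with earlier results of these data known. Genes with a mean under 10 reads over the 10 libraries were left out (11551 kept). edgeR 4.0.16 in R 4.3.3 fitted group alone with TMM factors and the quasi-likelihood test, with Benjamini-Hochberg adjustment over all genes and a threshold of 0.05. Log2 CPM for ratios and within-set differences used a prior count of 2. Alternatives were DESeq2 1.42.0, limma-voom 3.58.1, other scalings, filters and count columns, the replicate number as a block, a covariate, and each library left out. Values per library were given for members with an unadjusted p under 0.05 or groups that did not overlap, the 5 tested members highest per length and the pairs, and for Plagl1, chosen after its values were seen. On simulated counts with the group sizes of cKO against control (11380 genes), 44 of 96 genes changed by 1 on the log2 scale and 89 of 98 changed by 2 were called, with 5 false calls. Over 24 pairs of libraries of the same group, the chi-square per degree of freedom was 4.69 to 20.9, so none was taken as a duplicate. Members whose promoter or mature sequence was in no table used here are named only. Some genes of the marker lists are counted but not reported here by name.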

Additional observations from a re-analysis of the deposited data

Results flagged for a closer look

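Among the controls, values per library of 25 members and 8 ratios of neighbouring genes were searched for a library far from the rest, by the gap to its nearest neighbour as a share of the range (critical value 0.568 for 7 values). The log2 ratio of Mest to Copg2 in control replicate 2 was 2.23, with the next highest control at 1.59. The gap was 0.619 of the range. It was the only one of 33 groups searched, and chance alone flags about 1 in 20 groups.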

How the results depend on the processing

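Direction was kept by all 13 members with an unadjusted p under 0.05 under every alternative in which they could be fitted. The number of members called higher, 6, was 2 with the replicate number as a block (Meg3 and Kcnq1ot1) and 2 to 6 when a library was left out, with the lowest count without cKO replicate 1 (Magel2 and Grb10); under the other alternatives run for it the count was 4 to 8. The number called lower, 0, was 1 (Herc3) with DESeq2's Wald test, without a filter on low counts and with a covariate for the reads outside annotated genes, and 0 to 1 when a library was left out. The count of all genes called, 364, was 206 with at least 10 reads in every library, 961 with no filter on low counts, 213 with the replicate block and 275 to 420 when a library was left out. With no filter, the median log2 fold change was 0.43 for paternally and 0.76 for maternally expressed members; when a library was left out, the paternal median was 0.12 to 0.37. Assigning the isoform-dependent members to an allele gave 0.26 and 0.19. The replicate numbers were not taken to pair the libraries, since the correlation of deviations between libraries with the same number was 0.041, -0.103 and -0.211. With the block, the adjusted p was 0.0931 for Ndn, 0.0825 for Magel2, 0.0742 for Grb10, 0.294 for Zdbf2 and 0.288 for Nnat. The count limited to members with 10 reads in the controls as well and the within-set differences were added after the data were seen. The 11 members not tested had too few reads, for Snurf, Igf2 and Nespas with exons shared.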
